A study of Mus musculus with 8 samples.

Results

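The genes described here are the ligands and receptors of transforming growth factor beta (TGF-beta) and 4 transcripts that mark or follow myofibroblasts. They were taken by name from the deposited tables, and 9 of 9 were found among 56748 genes: the ligands Tgfb1, Tgfb2 and Tgfb3, the receptors Tgfbr1 and Tgfbr2, and Acta2, Tagln, Ccn2 and Postn. RNA of whole skin was sequenced from male mice aged 35 weeks that had received no treatment. There were 3 NPY-tet mice, labelled NPY tet/tet, of the strain B6;129S4-Npytm2Rpa/J. Their 5 siblings labelled NPY +/+ were the wild-type (WT) group, and the labels name no driver transgene and no drug for either group. The series' title speaks of inflammation and fibrosis of the skin under excess neuropeptide Y, which is the question that these genes bear on.

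In mm39, as the deposited table gives them, the ligand genes lie at chr7:25386427-25404502 (Tgfb1), chr1:186354989-186438186 (Tgfb2) and chr12:86103519-86125815 (Tgfb3). The receptor genes lie at chr4:47353222-47414931 (Tgfbr1) and chr9:115913361-116004428 (Tgfbr2). Acta2 lies at chr19:34218490-34232990, Ccn2 at chr10:24471340-24474581 and Postn at chr3:54268530-54298458, and Tagln is placed below. The gene lengths in the table equal the summed exons of GENCODE M21 for these genes, and values are per gene, so untranslated regions and isoforms are not separated.

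TGF-beta ligands are secreted in a latent complex and, once released, bind a type II receptor that recruits and activates a type I receptor. The type I receptor then phosphorylates SMAD transcription factors. In skin the pathway is known for driving fibroblasts to lay down matrix and to become contractile myofibroblasts during wound repair and fibrosis. Some of the transcripts used to recognise myofibroblasts are also made by the smooth muscle of vessels and of the muscles that raise hairs.

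Promoters are shown for Acta2, the usual myofibroblast marker, and for Tgfb1 and Tgfb2, the ligands with the highest and the lowest level here. They are the 250 bases before the annotated start, 5′ to 3′ on the gene's strand, from RefSeq on GRCm38.p6. That is an older build than the mm39 of the counts, and the 2 sets of coordinates are not interchangeable. Capitals mark matches to the motifs described after the sequences. The positions are chr19:34255374-34255623 on the minus strand for Acta2, chr7:25686752-25687001 on the plus strand for Tgfb1 and chr1:186705990-186706239 on the minus strand for Tgfb2.
Acta2: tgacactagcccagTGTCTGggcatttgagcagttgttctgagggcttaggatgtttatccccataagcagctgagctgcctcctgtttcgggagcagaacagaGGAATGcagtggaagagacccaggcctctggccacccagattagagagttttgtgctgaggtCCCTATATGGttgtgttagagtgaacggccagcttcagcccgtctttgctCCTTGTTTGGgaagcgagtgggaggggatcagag
Tgfb1: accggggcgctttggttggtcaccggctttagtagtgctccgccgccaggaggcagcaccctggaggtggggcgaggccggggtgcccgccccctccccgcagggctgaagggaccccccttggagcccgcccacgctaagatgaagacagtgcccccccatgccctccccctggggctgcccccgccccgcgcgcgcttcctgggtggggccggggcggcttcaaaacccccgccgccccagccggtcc
Tgfb2: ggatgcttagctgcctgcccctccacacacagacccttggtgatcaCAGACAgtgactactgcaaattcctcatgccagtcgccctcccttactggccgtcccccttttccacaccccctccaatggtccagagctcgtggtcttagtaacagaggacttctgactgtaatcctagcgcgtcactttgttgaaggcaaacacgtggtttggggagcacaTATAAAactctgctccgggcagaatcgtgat
The search covered both strands for CAGACA and GTCTAGAC (elements bound by SMADs), CATTCC (the element of TEAD factors), TATAAA (the TATA box) and the CArG box, which serum response factor binds. In the Acta2 window CAGACA lay on the opposite strand, 231 to 236 bases before the start, and CATTCC lay on the opposite strand, 141 to 146 bases before it. A CArG box with 1 mismatch, a search added after the sequence was seen, matched CCCTATATGG at 75 to 84 bases and CCTTGTTTGG at 25 to 34 bases before the start. The exact CArG box was not among the letters of this window. Tgfb2 had TATAAA 26 to 31 bases and CAGACA 199 to 204 bases before its start, and the Tgfb1 window, with 75.2% G and C against 53.6% for Tgfb2, held none of the motifs searched. Of 32851 promoter windows of the same length, 17.1% held CAGACA, 12.6% CATTCC, 12.4% TATAAA, 0.167% GTCTAGAC, 1.47% the exact CArG box and 17.5% one with 1 mismatch. These matches describe letters and carry no evidence of binding. Of the 9 genes 6 were in the promoter table.

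Depth was 31370433 to 47495565 counts per library, with 1 library per mouse. Npy itself stood at 0.159 to 0.502 CPM (counts scaled to a common library size) in WT and 299.7 to 321.5 CPM in NPY-tet mice, so each library matched its label. All 10 keratinocyte and all 12 fibroblast markers were detected in every library, as whole skin should show. Skeletal muscle markers summed to 40474 to 98738 CPM in WT and 43190 to 62531 CPM in NPY-tet mice. Markers of the growing hair shaft and inner root sheath ran from 26.8 to 7188 CPM in WT and from 451.5 to 4737 CPM in NPY-tet mice. Ribosomal RNA genes, those of the rRNA and the mitochondrial rRNA biotypes counted together, took 6.54% to 8.13% of counts in WT mice 1, 2, 3 and 5 and NPY-tet mouse 1. They took 0.0398% to 0.0759% in the other 3 libraries. The labels do not give this split, and values within the rRNA-high and the rRNA-low libraries are therefore set beside the differences of the 9 genes, the ratios, the list medians and the list genes described at length. In each set 1 arm is a single mouse, which the fit assumes to vary like the other group. NPY-tet mouse 1 stood apart in Col1a1, the main chain of dermal collagen, at 423.1 CPM against 5670 and 10022 CPM in the remaining NPY-tet mice and 3269 to 9146 CPM in WT mice. In bulk skin, fewer cells of a type and less RNA per cell cannot be told apart.

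Ordered by level per length (FPKM, counts scaled by gene length and library size, mean ± SD over all 8 mice), Acta2 was highest at 48.1 ± 6.68 FPKM. Tgfbr2 followed at 31.3 ± 3.81 FPKM and Ccn2 at 17.8 ± 5.71 FPKM. The middle of the order was close: Tgfb1 stood at 10.5 ± 2.07, Postn at 9.37 ± 2.82 and Tgfb3 at 9.24 ± 1.44 FPKM, with overlapping ranges. Tgfbr1 (4.18 ± 1.17 FPKM) and Tgfb2 (2.48 ± 0.552 FPKM) were lower, and Tagln was lowest at 0.457 ± 0.147 FPKM. Of neighbours in this order, Acta2 and Tgfbr2 were separate in their ranges over the 8 mice, as were Tgfb2 and Tagln, and all other neighbours overlapped.

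**Figure D1:**
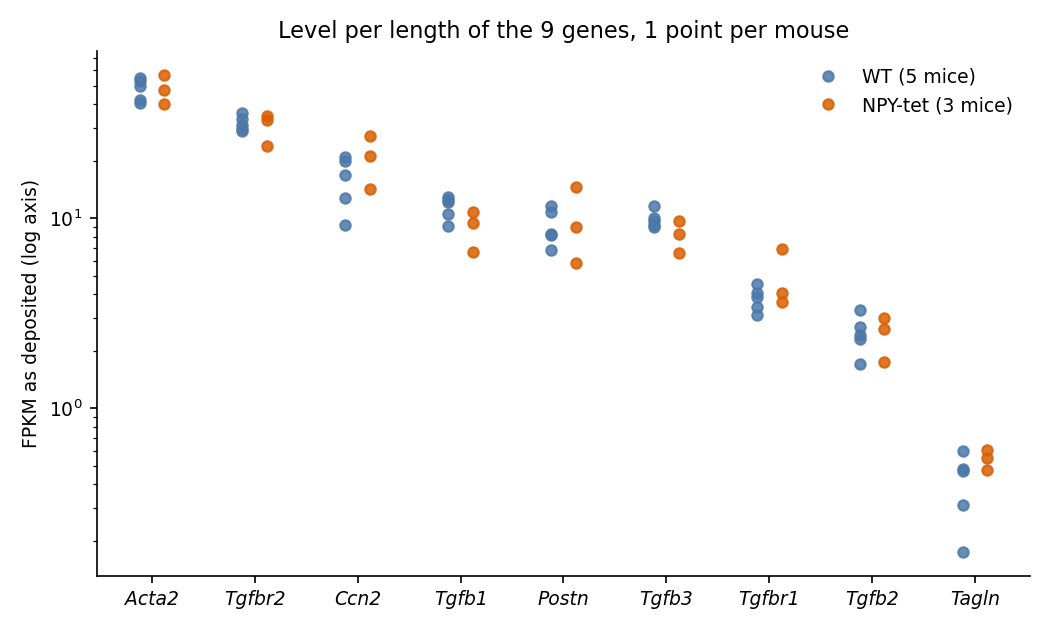
Deposited FPKM (log axis) of the 9 genes, in order of their mean, with 1 point per mouse (blue, 5 WT; orange, 3 NPY-tet). Acta2 lies at 39.9 to 57.1 FPKM and Tagln at 0.176 to 0.605 FPKM, and the genotypes overlap for every gene.

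No difference between the genotypes passed edgeR's quasi-likelihood test in the 9 genes: 0 rose and 0 fell at a Benjamini-Hochberg adjusted p of 0.05 over 18495 genes. In the same fit 1 gene was called, Npy, or 0.00541% of those tested, and the count of 0 among the 9 lies at this background. All 9 passed the filter on low counts. At an unadjusted p under 0.05 there were 0 of 9, against 5.98% of all genes, and 0 of 9 had groups that did not overlap, against 3.78% of all genes (1.81% with NPY-tet higher and 1.98% with NPY-tet lower). DESeq2 and limma-voom also called 0 of 9, against 0.334% and 0.0162% of all genes. Fitted log2 fold changes of NPY-tet over WT lay above 0 for 5 genes and below 0 for 4, with a median of 0.0073, and the median over all genes tested was 0.0041. The data limit each gene's difference through its 95% interval, given below beside its values.

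**Figure D2:**
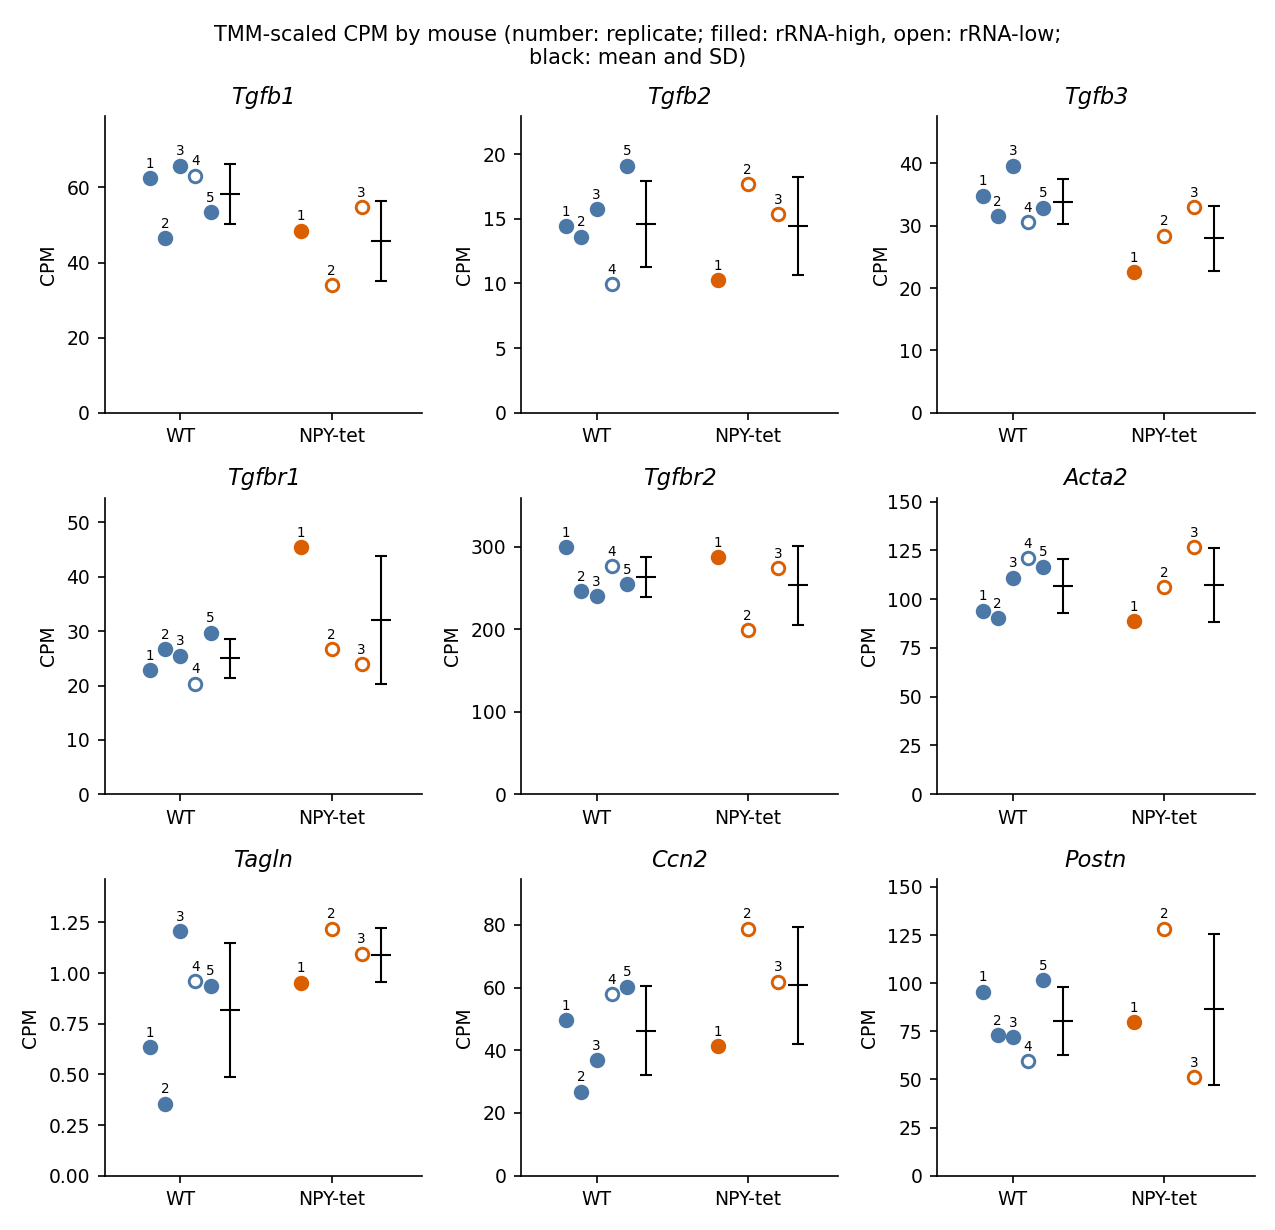
CPM of each gene in each mouse (number, replicate; filled, rRNA-high library; open, rRNA-low library; black, mean and SD over 5 WT or 3 NPY-tet mice). In each of the 9 panels the NPY-tet points overlap the WT points, and NPY-tet mouse 1 is highest for Tgfbr1 at 45.5 CPM.

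Among the ligands, Tgfb1, the main isoform of wound repair and fibrosis, ranked first of the 9 genes by p-value without passing. Its CPM were 62.5, 46.5, 65.8, 63.1 and 53.4 in WT mice 1 to 5 and 48.5, 34.0 and 54.7 in NPY-tet mice 1 to 3. The lowest value was in NPY-tet mouse 2, and the other 2 NPY-tet mice lay inside the WT range. The log2 fold change was -0.35 (SE 0.17, 95% interval -0.73 to 0.03), with an edgeR adjusted p of 0.795. It was -0.21 within the rRNA-high and -0.52 within the rRNA-low libraries, and without NPY-tet mouse 2 it was -0.17. Macrophage markers, a cell type that makes Tgfb1, summed to 759.5 CPM in NPY-tet mouse 2, to 1235 and 1198 CPM in the remaining NPY-tet mice and to 1192 to 1684 CPM in WT mice. Their part in the Tgfb1 values was not tested.

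Tgfb3, an isoform known from development and scar-poor repair, was also at lower values without passing. Its CPM were 34.8, 31.5, 39.6, 30.5 and 32.8 in WT and 22.5, 28.4 and 32.99 in NPY-tet mice. NPY-tet mice 1 and 2 lay below every WT mouse and NPY-tet mouse 3 inside their range. edgeR gave a log2 fold change of -0.28 (SE 0.15, 95% interval -0.61 to 0.06; edgeR adjusted p = 0.796). Within the sets it was -0.60 in the rRNA-high libraries and -0.0045 in the rRNA-low ones, and without NPY-tet mouse 1 it was -0.13. Other genes overlap Tgfb3 on the opposite strand, at 12.4% of its exon bases in GENCODE M21.

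Tgfb2, an isoform strongly made by epithelium and hair follicles, showed the smallest difference of the ligands. Its CPM were 14.4, 13.6, 15.7, 9.96 and 19.1 in WT and 10.3, 17.7 and 15.4 in NPY-tet mice. The lowest value belonged to WT mouse 4 and the highest to WT mouse 5, so the WT range spanned all NPY-tet values. The log2 fold change was -0.01 (SE 0.22, 95% interval -0.50 to 0.47; edgeR adjusted p = 0.995). It changed sign between the sets, at -0.60 in the rRNA-high and 0.72 in the rRNA-low libraries. The mice with the most hair shaft and root sheath RNA, WT mouse 5 (7188 CPM) and NPY-tet mouse 2 (4737 CPM), were also the 2 highest for Tgfb2. NPY-tet mouse 1, at 2465 CPM of those markers, had the second lowest Tgfb2, and the part of the hair cycle was not tested.

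By FPKM the 3 ligands together came to 20.6 to 27.1 in WT and 17.8 to 23.0 in NPY-tet mice, with overlap. Tgfb1 made up 44.2% to 53.8% of that sum in WT and 37.1% to 53.3% in NPY-tet mice. The share of Tgfb3 was 38.8% to 44.5% and 36.9% to 46.2%, and that of Tgfb2 7.39% to 14.0% and 9.81% to 16.8%. Ligand RNA was thus chiefly Tgfb1 and Tgfb3 in both genotypes, and the shares overlapped.

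Of the receptors, the type I receptor Tgfbr1, the kinase that phosphorylates SMADs, had 1 high NPY-tet mouse. Its CPM were 22.9, 26.7, 25.5, 20.3 and 29.7 in WT and 45.5, 26.7 and 23.9 in NPY-tet mice. NPY-tet mouse 1 stood above all other mice, and NPY-tet mice 2 and 3 lay inside the WT range. The log2 fold change of 0.36 (SE 0.21, 95% interval -0.09 to 0.81; edgeR adjusted p = 0.796) fell to 0.02 without that mouse. It was 0.82 in the rRNA-high set, whose NPY-tet arm is that mouse, and 0.31 in the rRNA-low set.

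The ligand-binding type II receptor Tgfbr2 varied by 1.49 times in FPKM between the lowest and the highest mouse. Its CPM were 299.3, 245.8, 239.9, 276.3 and 254.6 in WT and 287.1, 198.8 and 273.5 in NPY-tet mice. NPY-tet mouse 2 was lowest and the other 2 NPY-tet mice were inside the WT range. The fitted difference was a log2 fold change of -0.06 (SE 0.16, 95% interval -0.40 to 0.28; edgeR adjusted p = 0.949), 0.16 in the rRNA-high and -0.24 in the rRNA-low libraries. It turned to 0.09 without NPY-tet mouse 2. Per length, Tgfbr2 exceeded Tgfbr1 by 6.84 to 10.9 times in WT and by 5.04 to 9.12 times in NPY-tet mice.

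**Figure D3:**
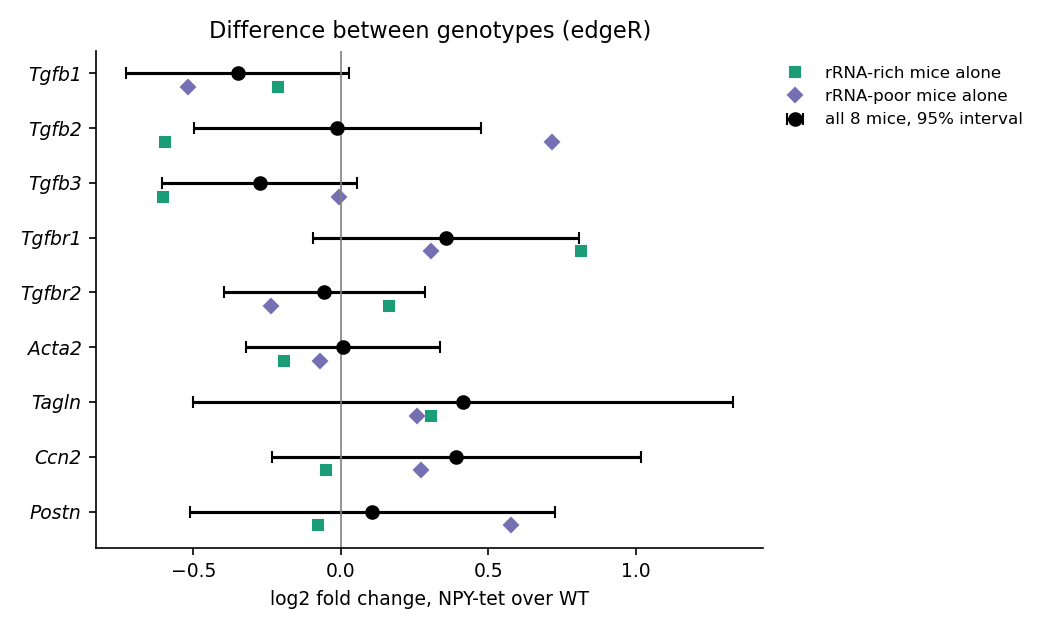
Log2 fold change of NPY-tet over WT for the 9 genes (black, all 8 mice with 95% interval; green squares, rRNA-high libraries alone, 4 WT and 1 NPY-tet; purple diamonds, rRNA-low libraries alone, 1 WT and 2 NPY-tet). Every black interval includes 0, and Tgfb2 lies at -0.60 and 0.72 in the 2 sets.

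Acta2 encodes alpha smooth muscle actin, the stress fibre protein by which myofibroblasts are usually recognised. Its CPM were 94.1, 90.1, 111.0, 121.1 and 116.6 in WT and 88.8, 106.0 and 126.6 in NPY-tet mice. The NPY-tet mice supplied both the lowest and the highest value, on either side of the WT range. The log2 fold change was 0.01 (SE 0.15, 95% interval -0.32 to 0.34; edgeR adjusted p = 0.995). In linear terms the interval runs from 0.800 to 1.26 times the WT level. Within the sets the change was -0.19 in the rRNA-high and -0.07 in the rRNA-low libraries, and it turned to -0.03, -0.05 and -0.13 without WT mouse 1, WT mouse 2 or NPY-tet mouse 3. Acta1, the skeletal muscle actin gene with a very similar coding sequence, stood at 4112 to 15075 FPKM in these libraries, and how reads were shared between the actin genes is uncertain. Over the 8 mice Acta1 differed by 3.67 times between the lowest and highest FPKM, and Acta2 by 1.43 times.

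Tagln encodes transgelin, an actin-binding protein of smooth muscle and myofibroblasts. Only 20, 14, 36, 48 and 28 counts were assigned to it in WT and 37, 45 and 38 in NPY-tet mice. NPY-tet mice lay at 0.953 to 1.22 CPM, inside the upper part of the WT range of 0.354 to 1.21 CPM or, for mouse 2, just above it. The estimate was a log2 fold change of 0.41 (SE 0.42, 95% interval -0.50 to 1.33; edgeR adjusted p = 0.854), the widest interval of the 9. It was 0.31 and 0.26 within the rRNA-high and rRNA-low sets, 0.22 without WT mouse 2 and 0.77 by limma-voom. Acta2 exceeded Tagln per length by 83.3 to 230.1 times in WT and by 78.7 to 104.6 times in NPY-tet mice.

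The low counts of Tagln need a caution. In the deposited table Tagln (ENSMUSG00000032085) lies on the minus strand of chromosome 9 at 45840917 to 45847356 in mm39. On the plus strand the lncRNA gene Gm48529 lies within it at 45841410 to 45845036, and the end of Pcsk7 reaches 108 bases into it. In GENCODE M21, whose exons of Tagln total 1988 bases like those of the deposited table, exons of these 2 genes cover 67.9% of Tagln's exon bases, 62.4% by Gm48529. Gm48529 itself had 18 to 62 counts. The libraries keep no strand, so reads of these genes cannot be told apart, and the counting rule for shared bases is not given in the sources used here. Their part in the low level of Tagln was not tested.

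Ccn2 encodes connective tissue growth factor, a secreted protein induced by TGF-beta and by the mechanical YAP pathway. Its CPM were 49.5, 26.8, 36.8, 57.8 and 60.3 in WT and 41.3, 78.8 and 61.9 in NPY-tet mice. NPY-tet mice 2 and 3 exceeded every WT mouse, and NPY-tet mouse 1 lay inside the WT range. The log2 fold change was 0.39 (SE 0.28, 95% interval -0.23 to 1.02; edgeR adjusted p = 0.812). Without NPY-tet mouse 1 it was 0.61 and without NPY-tet mouse 2 it was 0.16, and the sets gave -0.05 (rRNA-high) and 0.27 (rRNA-low). Exons of the antisense lncRNA gene Gm15270 cover 23.2% of the exon bases of Ccn2 in GENCODE M21, and Gm15270 had 2 to 14 counts per library.

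Postn encodes periostin, a matrix protein of activated fibroblasts and of the fibrous sheath around hair follicles. Its CPM were 95.5, 73.0, 71.9, 59.4 and 101.5 in WT and 79.8, 128.4 and 51.1 in NPY-tet mice. NPY-tet mouse 2 was the highest of all mice and NPY-tet mouse 3 the lowest. The fitted log2 fold change was 0.11 (SE 0.28, 95% interval -0.51 to 0.73; edgeR adjusted p = 0.946), and without NPY-tet mouse 2 it turned to -0.29. It was -0.08 within the rRNA-high and 0.58 within the rRNA-low libraries. The mice with the most hair shaft and root sheath RNA, WT mouse 5 and NPY-tet mouse 2, held the 2 highest Postn values. NPY-tet mouse 1, at 2465 CPM of those markers, lay inside the WT range of Postn. NPY-tet mouse 3, at 451.5 CPM of the markers, above WT mice 1 to 4, had the lowest Postn. The part of the hair cycle was not tested.

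Postn was also set against Col1a1. In counts the log2 ratio of Postn to Col1a1 was -6.22, -5.48, -5.64, -6.00 and -6.49 in WT mice. In NPY-tet mice it was -2.41, -5.46 and -7.62, so that the NPY-tet values lay on both sides of the WT range. The mean difference of 0.81 had a two-sided exact permutation p of 0.571 over 56 splits (0.839 adjusted over the 3 ratios tested), where the smallest p is 0.0179. Without NPY-tet mouse 1, the mouse with little Col1a1, it turned to -0.57, and without NPY-tet mouse 3 it was 2.03 (exact p = 0.0476, the smallest those libraries can give). It was 3.55 in the rRNA-high and -0.54 in the rRNA-low libraries.

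Because Acta2 is shared between myofibroblasts and smooth muscle, it was set against Myh11, the smooth muscle myosin heavy chain. Myh11 stood at 47.1 to 64.4 CPM in WT and 67.6 to 77.3 CPM in NPY-tet mice without overlap, and its log2 fold change of 0.38 (SE 0.13) did not pass (edgeR adjusted p = 0.711), being 0.28 in the rRNA-high and 0.52 in the rRNA-low libraries. Of all genes tested, 1.81% were likewise without overlap and higher in NPY-tet mice. The log2 ratio of Acta2 to Myh11 was 1.00, 0.66, 0.94, 1.22 and 0.86 in WT and 0.39, 0.45 and 0.80 in NPY-tet mice. NPY-tet mice 1 and 2 lay below all WT mice and NPY-tet mouse 3 inside their range. The mean difference was -0.39, with a two-sided exact permutation p of 0.0536 (0.161 adjusted over the 3 ratios). It was -0.47 in the rRNA-high and -0.59 in the rRNA-low libraries. Leaving out WT mouse 2 (-0.45, exact p = 0.0286) or NPY-tet mouse 3 (-0.51, exact p = 0.0476) gave a p under 0.05 before adjustment, at the smallest p that those libraries can give. The ratio of Tagln to Myh11 differed by 0.13 (two-sided exact permutation p = 0.839) and turned to -0.15 without WT mouse 2 and to -0.26 within the rRNA-low libraries.

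**Figure D4:**
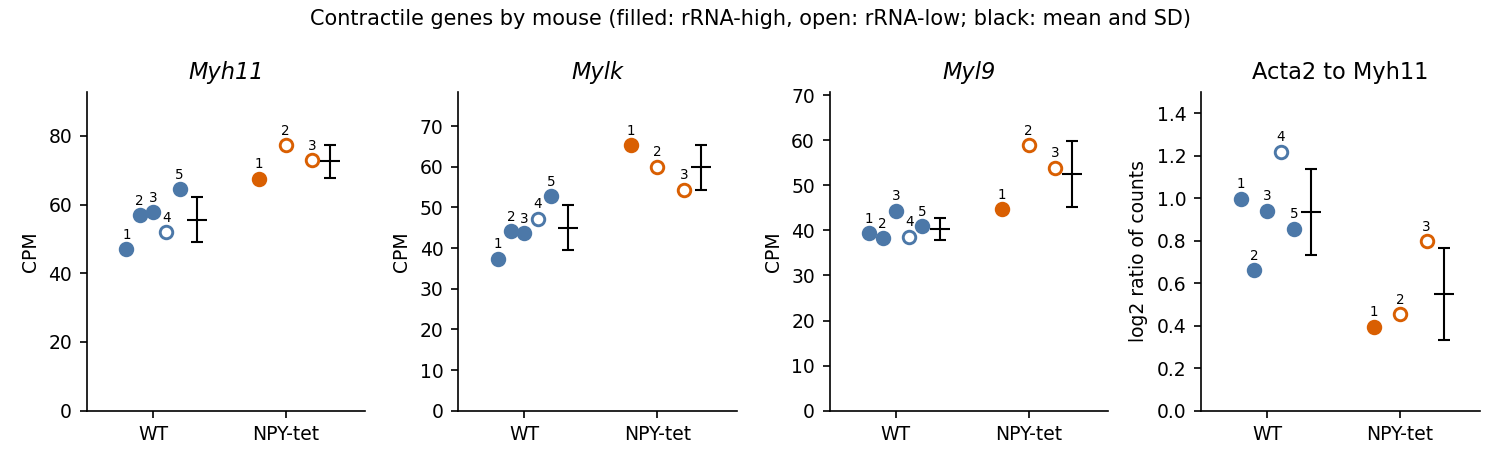
CPM of Myh11, Mylk and Myl9 and the log2 ratio of Acta2 to Myh11 in each mouse (number, replicate; filled, rRNA-high library; open, rRNA-low library; black, mean and SD over 5 WT or 3 NPY-tet mice). Mylk and Myl9 are plotted with Myh11 as genes of their lists without overlap, a pattern that 1.81% of all genes show in this direction. None of the 3 passed the test. Tnfrsf12a, of the same list as Myl9, was also without overlap and is not plotted. Of 11 tested smooth muscle markers 8 had fitted values above 0 and 3 below, among these Lmod1 at -0.85. Of 20 myofibroblast and contractile fibroblast genes 10 lay above and 10 below 0, among the latter Vcl at -0.37. The ratio overlaps at 0.66 to 1.22 in WT against 0.39 to 0.80 in NPY-tet mice.

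Smooth muscle and pericyte markers, the other sources of Acta2, did not pass either. Of 11 tested smooth muscle markers 0 were called, 8 had fitted values above 0 and 3 below, and 2 had an unadjusted p under 0.05 (18.2%, against 5.98% of all genes). Their median was 0.18, against 0.0041 over all genes, and its sign differed between the sets, at -0.13 in the rRNA-high and 0.49 in the rRNA-low libraries. The 2 with the low p were Myh11 and the myosin light chain kinase gene Mylk, at 45.0 ± 5.58 CPM in 5 WT and 59.9 ± 5.50 CPM in 3 NPY-tet mice (edgeR adjusted p = 0.708; log2 fold change 0.57 in the rRNA-high and 0.26 in the rRNA-low libraries). The leiomodin gene Lmod1, an actin nucleator of smooth muscle, pointed the other way at 46.0 ± 16.1 and 25.6 ± 13.2 CPM (edgeR adjusted p = 0.796). By mouse Lmod1 stood at 52.2, 51.7, 66.1, 24.8 and 35.3 CPM in WT and 12.1, 26.2 and 38.4 CPM in NPY-tet mice. Skeletal muscle markers summed to 72371, 72174.5, 98738, 40474 and 65617 CPM and to 43190, 54875 and 62531 CPM in the same mice. The part of skeletal muscle in the Lmod1 values was not tested. Lmod1 stood at a log2 fold change of -2.07 within the rRNA-high libraries, where NPY-tet mouse 1 is the only NPY-tet mouse, and at 0.37 in the rRNA-low ones. Of 10 pericyte markers 0 were called, with 2 above and 8 below 0 and a median of -0.11, which was -0.37 in the rRNA-high and -0.04 in the rRNA-low libraries and 0.07 without NPY-tet mouse 1.

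Further myofibroblast and contractile fibroblast genes were split evenly. None of 20 was called over all 8 mice, 10 lay above and 10 below 0, with a median of 0.0049, and 3 had an unadjusted p under 0.05 (15%, against 5.98% of all genes). The median was -0.25 in the rRNA-high and 0.39 in the rRNA-low libraries. Tnfrsf12a, the receptor of the cytokine TWEAK, stood at 11.005 to 16.1 CPM in WT and at 29.5, 18.4 and 21.1 CPM in NPY-tet mice, without overlap (log2 fold change 0.77, SE 0.18; edgeR adjusted p = 0.535). Myl9, a regulatory myosin light chain, stood at 38.2 to 44.4 and at 44.6, 58.9 and 53.9 CPM, without overlap (edgeR adjusted p = 0.708). The focal adhesion gene Vcl stood at 66.6 ± 5.39 and 51.6 ± 8.52 CPM (edgeR adjusted p = 0.783), and the secreted Wnt modulator gene Sfrp2 at 29.5 ± 17.8 and 13.3 ± 6.82 CPM (edgeR adjusted p = 0.796). Vcl and Sfrp2 were at lower values and Tnfrsf12a and Myl9 at higher ones, and none of the 4 passed over all 8 mice. Within the sets Tnfrsf12a stood at a log2 fold change of 1.16 in the rRNA-high libraries, whose NPY-tet arm is mouse 1, and at 0.48 in the rRNA-low ones. Sfrp2 stood at -1.97 in the rRNA-high and -1.82 in the rRNA-low libraries. By mouse it was at 5.46, 16.9 and 17.6 CPM in NPY-tet mice and at 16.2 to 60.7 CPM in WT mice. NPY-tet mouse 1, the only NPY-tet mouse of the rRNA-high set, lay below the WT range, and NPY-tet mice 2 and 3 lay inside it. In the rRNA-low set the single WT mouse is mouse 4, the highest of all mice for Sfrp2 at 60.7 CPM. Myl9 stood at 0.15 and 0.53 and Vcl at -0.49 and -0.23 in the rRNA-high and rRNA-low libraries.

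Transcripts that TGF-beta induces in fibroblasts had 18 fitted values above and 8 below 0, with a median of 0.07, which was -0.02 in the rRNA-high and 0.26 in the rRNA-low libraries. None of 26 was called or had an unadjusted p under 0.05 over all 8 mice. The largest difference was in Fn1, which encodes fibronectin, at 680.6 ± 170.1 CPM in WT and 374.9 ± 238.6 CPM in NPY-tet mice (log2 fold change -0.86, SE 0.40; edgeR adjusted p = 0.795). NPY-tet mouse 1 had 154.2 CPM of Fn1, against 342.5 and 628.0 CPM in the remaining NPY-tet mice. Within the rRNA-high libraries, where that mouse is the only NPY-tet mouse, Fn1 stood at a log2 fold change of -2.05, and in the rRNA-low ones at -0.75. Col3a1 and Col5a1, collagen genes of the lists, stood at log2 fold changes of -0.03 and 0.0053 over all 8 mice. The crosslinking enzyme gene Lox stood at 60.7 ± 16.2 and 83.6 ± 30.0 CPM, the transcription factor gene Bhlhe40 at 100.8 ± 18.7 and 76.8 ± 17.7 CPM, and the cartilage matrix gene Comp at 2.66 ± 0.828 and 1.71 ± 0.174 CPM. The summed CPM of the list, which includes Col1a1, was 10644 to 24496 in WT and 2685, 17745 and 26123 in NPY-tet mice.

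Upstream of the receptors, 0 of 19 genes of latency and activation were called, with 8 above and 11 below 0 and a median of -0.07 (0.10 in the rRNA-high and -0.04 in the rRNA-low libraries). The fibrillin gene Fbn1, whose microfibrils hold latent complexes, stood at 128.0 ± 28.7 and 91.4 ± 38.3 CPM and its relative Fbn2 at 0.492 ± 0.582 and 1.34 ± 0.274 CPM. Ltbp2, a member of the latent TGF-beta binding protein family, stood at 19.9 ± 6.53 and 28.04 ± 6.29 CPM, and Nrros, which anchors latent TGF-beta on myeloid cells, at 25.2 ± 4.57 and 20.8 ± 2.85 CPM. The other receptors of the superfamily numbered 10, of which 0 were called, with 5 above and 5 below 0 and a median of -0.01 (-0.01 in the rRNA-high and 0.05 in the rRNA-low libraries). Among them the endothelial co-receptor gene Eng stood at 80.6 ± 15.0 and 66.0 ± 11.5 CPM and the type I receptor gene Acvrl1 at 57.3 ± 6.46 and 47.2 ± 13.5 CPM.

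Downstream, 0 of 8 SMADs and cofactors were called, with 5 above and 3 below 0 and a median of 0.04 (0.16 in the rRNA-high and 0.05 in the rRNA-low libraries). Smad3, the receptor-activated SMAD most tied to fibrosis, stood at 70.3 ± 6.28 CPM in WT and at 42.4, 56.5 and 77.0 CPM in NPY-tet mice, with a log2 fold change of -0.74 in the rRNA-high and 0.07 in the rRNA-low libraries. Smad2 stood at 51.8 ± 4.73 and 46.9 ± 7.25 CPM, and the shared partner Smad4 at 73.4 ± 6.73 and 81.8 ± 15.6 CPM. Of 16 tested inhibitors 0 were called, with 9 above and 7 below 0 and a median of 0.02 (0.00035 in the rRNA-high and 0.09 in the rRNA-low libraries). Grem1, an antagonist of bone morphogenetic proteins, stood at 17.4 ± 2.76 and 22.4 ± 4.02 CPM, the co-repressor gene Ski at 219.2 ± 10.1 and 194.1 ± 14.3 CPM, and the proteoglycan gene Bgn at 261.5 ± 51.1 and 216.2 ± 34.3 CPM.

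Of 14 genes of the MRTF, SRF and YAP machinery 0 were called, with a median of 0.09 (0.24 in the rRNA-high and -0.01 in the rRNA-low libraries). Ankrd1, a target of YAP that striated muscle also makes, stood at 13.8 CPM in NPY-tet mouse 1. In the other 7 mice it was at 0 to 0.623 CPM, so its log2 fold change of 4.28 (SE 1.49; edgeR adjusted p = 0.795) rests on that mouse. The log2 fold change of Ankrd1 was 5.45 in the rRNA-high set, whose NPY-tet arm is that mouse, and 6.97 in the rRNA-low set. In the rRNA-low set WT mouse 4, the single WT mouse, had 0 counts of Ankrd1, and NPY-tet mice 2 and 3 had 23 and 5. Srf itself stood at 96.7 ± 11.9 and 83.1 ± 10.4 CPM. The 7 pathway lists together held 105 tested genes, of which 0 were called over all 8 mice, 3.81% had an unadjusted p under 0.05 against 5.98% of all genes, and 1.90% did not overlap between the groups against 3.78%.

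**Figure D5:**
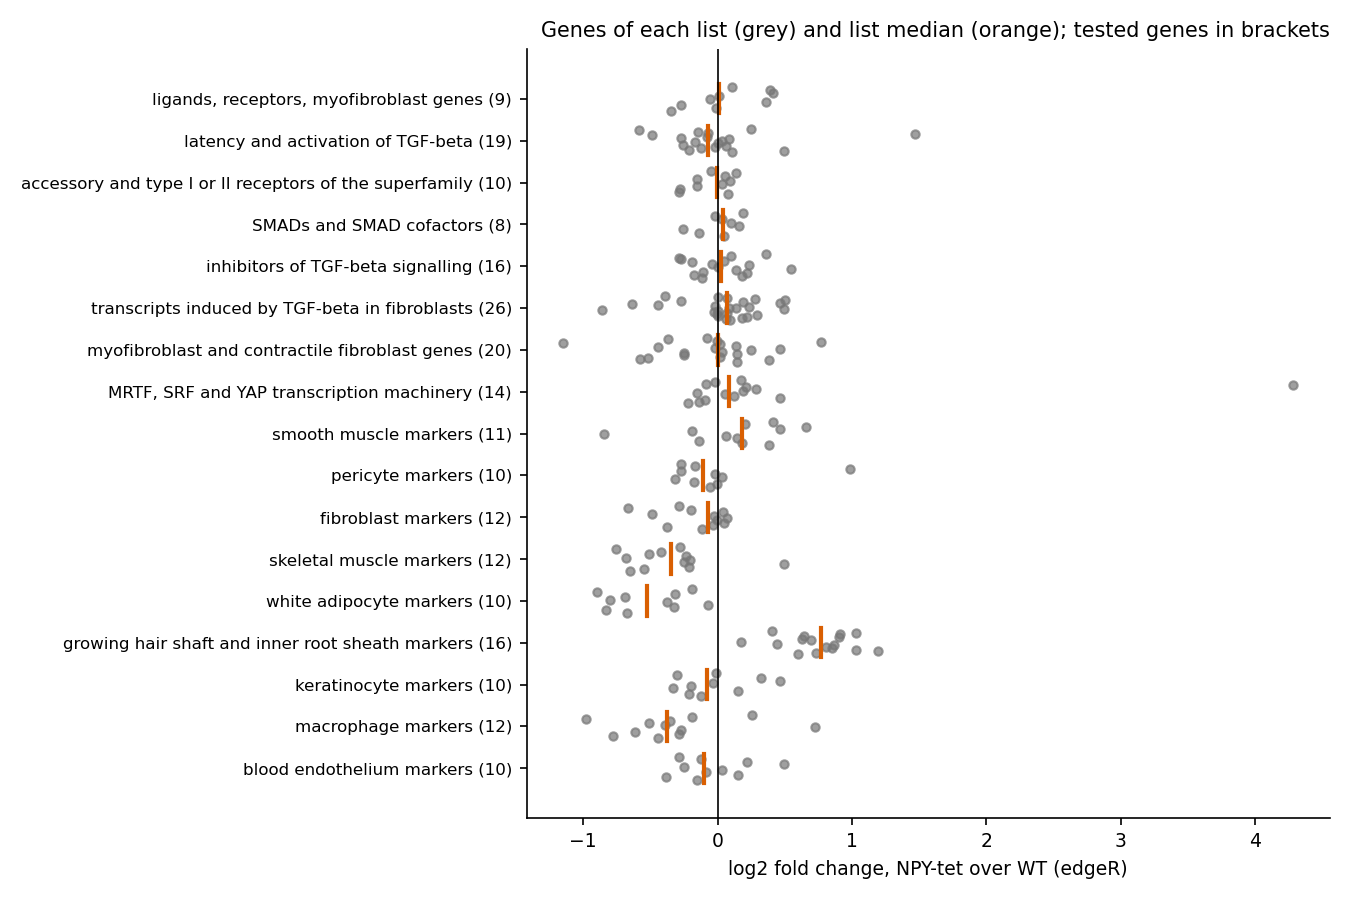
Log2 fold change of NPY-tet over WT for each tested gene of each list (grey points; number tested in brackets) with the list median (orange bar). The pathway lists have medians between -0.07 and 0.09, and the point at 4.28 is Ankrd1.

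Markers of other cell types of skin had 0 calls over all 8 mice as well, and several of their medians depended on the library set. White adipocyte markers had 10 of 10 fitted values below 0, and 4 of 10, namely Retn, Plin1, Car3 and Cfd, had an unadjusted p under 0.05 (40%, against 5.98% of all genes). Their median was -0.52, with -0.94 in the rRNA-high and -0.71 in the rRNA-low libraries, and it was -1.15 without NPY-tet mouse 3 and -0.29 without NPY-tet mouse 2. Skeletal muscle markers had 11 of 12 fitted values below 0 and a median of -0.35. That median turned sign between the sets, at -1.07 in the rRNA-high and 0.52 in the rRNA-low libraries.

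Hair shaft and root sheath markers had 16 of 16 fitted values above 0 and a median of 0.77, with ranges that overlapped between the genotypes. The median was 0.24 in the rRNA-high and 7.98 in the rRNA-low libraries, whose single WT mouse had 41.5 CPM of these markers. It was 6.23 by limma-voom, 4.77 without WT mouse 5 and -0.08 without NPY-tet mouse 2, so its size and sign rest on single mice. Macrophage markers had 10 of 12 fitted values below 0 and a median of -0.38, with -0.19 in the rRNA-high and -0.82 in the rRNA-low libraries. Of the 12, 6 had an unadjusted p under 0.05 (50%, against 5.98% of all genes), 5 below 0 and 1 above it, Cd163, a scavenger receptor gene (log2 fold change 0.72). Within the rRNA-low libraries, with a single WT mouse, Cd68 stood at a log2 fold change of -1.20, Fcgr1 at -1.69 and Cd163 at 0.67.

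Fibroblast markers, the cells in which the pathway is usually read, had 3 fitted values above and 9 below 0 and a median of -0.07. That median was -0.81 in the rRNA-high and -0.11 in the rRNA-low libraries, -0.63 with the rRNA set as a model term and 0.07 without NPY-tet mouse 1. Their summed CPM was 3064 in NPY-tet mouse 1, against 18702 and 26322 in the remaining NPY-tet mice and 11311 to 24915 in WT mice. That sum includes the collagen genes Col1a1, Col1a2 and Col3a1, and Col1a1 was low in NPY-tet mouse 1, as given above. Of other markers in that mouse, only those of smallest edgeR p in the list are given, all with fitted values below 0. Dpt stood at 274.3 CPM against 410.6 to 722.8 CPM in WT mice. Clec3b stood at 115.8 against 205.4 to 378.8 CPM and Pi16 at 99.3 against 128.3 to 262.2 CPM. Fbln1, at 72.5 CPM, lay inside the WT range of 71.0 to 121.1 CPM. The markers Dcn, Dpp4, Lum, Pdgfra and Thy1 are not given by mouse. Their fitted values over all mice were 0.04, 0.04, -0.03, -0.12 and -0.20, so a general loss of fibroblast RNA in that mouse is not shown. The part of tissue makeup in the values above was not tested.

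The transcripts whose profiles over the 8 libraries were most like those of the 4 myofibroblast genes included 0 genes of the lists. Likeness is the root mean square difference between centred log2 CPM profiles, over 11448 genes with at least 5 CPM on average, and is a description. For Acta2 these were Actl6a (0.0662), Ppp1r8 (0.0717) and Sae1 (0.0738), beside a spread of 0.19 of Acta2 itself. Ccn2, with a spread of 0.46, was nearest to Nt5dc2 (0.20), the amino acid transporter gene Slc7a5 (0.22) and the epidermal transglutaminase gene Tgm1 (0.22). Postn, with a spread of 0.40, was nearest to Pitpnm3 (0.18), Cdc14a (0.18) and AU020206 (0.19). Tagln, with a spread of 0.51 at its low counts, had no profile nearer than Lipn (0.29).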

How the data were processed

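Whole skin RNA of 8 mice was sequenced as libraries without strand after poly-T selection, per the labels' protocols. The authors deposited whole-number counts per gene and FPKM, 1 column per mouse. From the values, FPKM are counts over the gene length in the file and over an effective library size that differs from the column total. Per the submitters' processing notes, which give no role or order, the build was mm39 and the tools included featureCounts 1.5.0-p3, DESeq2 1.20.0, HISAT2 2.0.5 and CASAVA. Columns were matched to mice by name. For samples 3 to 8 the library name in the labels carries a mouse number higher by 1 with the same genotype, so which mouse stands behind a number is uncertain.

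Counts were compared with edgeR 4.0.16 in R 4.3.3: filterByExpr, TMM size factors, robust quasi-likelihood fit, genotype as the only term, two-sided, Benjamini-Hochberg over 18495 genes at 0.05. The SE is the fold change over the square root of F. CPM are TMM-scaled. Alternatives used DESeq2 1.42.0 and limma 3.58.1. Ratios of 2 genes were compared by exact permutation over mice. Named genes are the 9, Npy, Myh11, Acta1, Col1a1, examples from up to 4 of smallest p per list, list genes called under an alternative, and the 3 nearest profiles. The genes and lists were chosen with earlier results of these data known. The fits of genotype by edgeR, DESeq2, limma-voom and limma on log2 scaled values were run on simulated counts with genes changed by known folds. The rRNA sets with a single mouse in 1 arm, the ratios, the likeness and the check for a library apart were not simulated. Replicate numbers are separate animals and were not treated as pairs.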

Additional observations from a re-analysis of the deposited data

Results flagged for a closer look

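Of 94 values checked for 1 WT library lying apart from the other 4, 10 had one, and 0 of the 9 genes described above were among them. For independent, normally distributed values, chance would set a library apart in about 1 in 20 such groups. The CPM here were not on a log scale and include related hair genes and their sum, so that share does not apply directly. Wild-type mouse 5 was apart in 9 of the 10. Its summed hair shaft and inner root sheath markers came to 7188 CPM, against 26.8 to 369.7 CPM in the other WT mice. Of single genes of that list, Msx2 stood at 27.6 CPM (2.46 to 5.07 in the others), Lef1 at 11.6 CPM (0.268 to 2.12), Dlx3 at 103.3 CPM (15.8 to 27.2) and Krt33b at 83.3 CPM (0 to 1.30). Lox stood at 89.1 CPM in that mouse (49.8 to 56.6 in the others), Fbn2 at 1.505 CPM (0.152 to 0.476), Npy at 0.502 CPM (0.159 to 0.180) and the endothelial gene Egfl7 at 15.4 CPM (21.4 to 23.7). Wild-type mouse 4 was apart in Sfrp2, at 60.7 CPM against 16.2 to 26.2 CPM.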

How the results depend on the processing

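Under 22 alternatives the count of the 9 genes past an adjusted p of 0.05 was 0 each time, and none of 189 fold changes under alternatives passed. The smallest adjusted p was 0.0901, for Tgfbr1 in the rRNA-high libraries alone. The count over all genes was 1, and became 21 with no filter on low counts, 64 by DESeq2, 3 by limma-voom, 2 by limma on log2 FPKM with either pseudocount, 11 with the rRNA set as a model term, 332 within the rRNA-high and 227 within the rRNA-low libraries, and 1 to 8 when 1 library was left out (8 without NPY-tet mouse 3). Genes of the lists past the threshold numbered 0, but 2 with that term (Ankrd1 and Sfrp2), 12 in the rRNA-high (Ankrd1, Car3, Cldn5, Col3a1, Col5a1, Fn1, Itgb6, Lmod1, Plin1, Pvalb, Sfrp2 and Tnfrsf12a) and 8 in the rRNA-low libraries (C1qa, Cd68, Cthrc1, Fcgr1, Lef1, Mmp9, Myh2 and Sfrp2). Of 336 list medians under alternatives, 21 moved by more than 1 SD between libraries. With the replicate block 2 genes were called, 0 of them among the 9 or the lists, Ccn2 stood at 0.68, Tagln at 0.71 and the median of the hair markers at 5.26. Same-numbered libraries did not deviate together (correlations -0.04, -0.11 and 0.30). Signs turned for Tgfb2 with limma-voom (0.10), without ribosomal RNA genes (0.0046), with the rRNA term (0.00995) and in the rRNA-low libraries (0.72), for Acta2 with the rRNA term (-0.14) and in the rRNA-high (-0.19) and rRNA-low libraries (-0.070), and in the rRNA-high libraries for Tgfbr2 (0.16), Ccn2 (-0.049) and Postn (-0.078). The cause was not tested. Leaving out 1 library gave -0.18 to 0.19 for Tgfb2, -0.13 to 0.13 for Acta2, -0.15 to 0.092 for Tgfbr2 and -0.29 to 0.38 for Postn. It gave -0.51 to -0.31 for the ratio of Acta2 to Myh11, -0.15 to 0.29 for Tagln to Myh11 and -0.57 to 2.03 for Postn to Col1a1, which was 3.55 in the rRNA-high libraries. Tagln rests on 14 to 48 counts per library.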
